A study of Homo sapiens with 68 samples.

Results

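Sites of hnRNPA1 only are places on RNA where reproducible crosslinking-immunoprecipitation peaks were listed for hnRNPA1 and none overlapped them in the matching lists of 3 other proteins. They were chosen by overlap alone. A peak of hnRNPA1_50k_noPAGE replicate 1 was kept when replicate 2 listed a peak sharing at least 1 nt on the same strand, and when no peak of hnRNPc, hnRNPI or RBFOX2 in the 50k_noPAGE and 50k_lowRNase libraries shared 1 nt with it. Of the 499537 peaks of replicate 1, 264643 were overlapped in replicate 2 and are called reproducible here. Of these, 145063 (54.8%) were overlapped by another protein, which left 119580 sites (45.2% of the reproducible peaks and 23.9% of the list of replicate 1). The whole series lists 15800601 peaks.

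hnRNPA1 is an abundant, mostly nuclear RNA-binding protein that shuttles to the cytoplasm. It binds single-stranded RNA through RNA recognition motifs, favours UAG-containing stretches, and is best known for silencing splice sites when it sits on exons or nearby introns. The proteins used for exclusion have other preferences: hnRNPc (hnRNP C) binds uridine tracts, hnRNPI (also called PTB) binds pyrimidine-rich RNA, and RBFOX2 binds UGCAUG. All 4 bind introns of nuclear transcripts and regulate splicing.

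The lists come from TLC-CLIP, in which ultraviolet light links proteins to the RNA they touch in HEK293T cells (a human embryonic kidney line), RNase shortens the RNA, 1 protein is immunoprecipitated and its RNA is sequenced. The series has 68 libraries in 34 groups of 2 replicates, and every group uses HEK293T cells with no other genetic change in the labels. The libraries that define the sites were made from 50000 cells with 0.005 U of RNase, either without PAGE (noPAGE, no gel separation of the protein-RNA complexes) or with it (lowRNase). The rule left 54 libraries unused, 10 of them of hnRNPA1.

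Crosslinked hnRNPA1 libraries outside the rule are hnRNPA1_50k_lowRNase (0.005 U, with PAGE), hnRNPA1_50k_mediumRNase (0.025 U, with PAGE) and hnRNPA1_50k_noPAGE_RecJ (0.005 U, without PAGE, with RecJ exonuclease to remove adapter). Libraries titled noUV_hnRNPA1 (with PAGE) and noUV_noPAGE_hnRNPA1 are taken from their titles to be without crosslinking, although their protocol text describes it, and used 50000 cells and 0.005 U. The other antibodies have libraries of the same kinds except that only hnRNPc has mediumRNase. There are also hnRNPc and RBFOX2 libraries from fewer cells (0.001 U at 10000 and 0.0001 U at 1000 cells), hnRNPc libraries titled 5k and 500 (0.005 U, without PAGE, labelled 50000 cells) and 8 libraries titled Background from gel regions between 50 and 250 kDa. All noUV libraries, those of 10000 and 1000 cells and the gel regions have accessions in a run apart from the 50k libraries. No label names a preparation batch. That run also holds the crosslinked libraries of 10000 and 1000 cells, but for hnRNPA1 it holds all 4 libraries without UV and none with it.

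No read totals come with the lists, so depth is unknown and no interval or detection limit was computed. Lists of crosslinked hnRNPA1 libraries held 365593 to 523402 peaks and those without UV 146915 to 196278. A longer list can overlap more sites. The list of hnRNPc_50k_lowRNase replicate 1 stands apart with 3268 peaks, and it overlapped 0.506% of the reproducible peaks against 15.9% for replicate 2. Without it the number of sites was 119599. Nothing says that replicates came from separate cultures, so an SD measures only the spread between these libraries, which may be technical.

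The 3 other proteins removed different shares of the reproducible peaks. Any of the 4 hnRNPc libraries overlapped 84309 peaks (31.9%), any RBFOX2 library 71840 (27.1%) and any hnRNPI library 62415 (23.6%). Single libraries overlapped 9.56% (hnRNPI_50k_lowRNase replicate 2) to 17.6%, apart from the short hnRNPc list; the lowest without PAGE was 10.2% (RBFOX2_50k_noPAGE replicate 1). Some peaks were removed by 1 protein alone: 40088 by hnRNPc, 26904 by RBFOX2 and 20678 by hnRNPI. By the same rule, 114632 of 209379 reproducible hnRNPc peaks (54.7%), 108368 of 203744 of hnRNPI (53.2%) and 26448 of 76910 of RBFOX2 (34.4%) were sites of that protein only.

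At the edge of the rule, 562 sites shared exactly 1 nt with replicate 2 and 7086 shared under 10 nt, while the median site was covered over 77.5% of its width. On the other side, 628 excluded peaks shared exactly 1 nt with another protein and 7668 shared under 10 nt, with a median cover of 76.4%. A further 5510 sites (4.61%) lay under 10 nt from such a peak without touching it. Few sites were isolated from the other proteins. The nearest peak of an excluding library was a median 157 nt away (quartiles 60 and 377 nt), 37.0% of sites lay within 100 nt of one, and 92.7% within 1000 nt.

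The sites were narrower and had lower read numbers than the other reproducible peaks. They were not narrow for their list: all peaks of hnRNPA1_50k_noPAGE replicate 1 had a median width of 62 nt. Peaks on the sites stood at a median read percentile of 56.4 in that list. Read number here means the last number in each peak's name, taken to count its reads; the lists do not state its meaning. Widths of sites had a median of 68 nt (quartiles 48 and 91 nt, range 1 to 380 nt), against 80 nt (quartiles 58 and 109 nt) for the other reproducible peaks. Read numbers of sites had a median of 12 (quartiles 8 and 19), against 19 (quartiles 12 and 32). A wider or more abundant peak is more easily touched by another list, so these differences are tied to the rule and have no test. The same direction held for the other 3 proteins: the median width of single-protein sites against the rest was 65 and 72 nt for hnRNPc, 82 and 86 nt for hnRNPI, and 60 and 72 nt for RBFOX2.

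Width followed the read number more than membership. Among peaks of 8 to 15 reads, sites had a median width of 64 nt and the other reproducible peaks 63 nt, and among those of 16 to 31 reads both had 86 nt. At 32 to 63 reads the medians were 109 and 111 nt, and at 64 reads or more 115 and 128 nt. The share of reproducible peaks that were sites fell along the read classes, from 68% at 4 to 7 reads through 55.0%, 38.4% and 23% to 10.4% at 64 or more. The caller's inner interval, a stretch of at most 4 nt in each peak, lay at the middle of the sites (median 50.0% from the 5′ end, quartiles 46.4 and 53.8%). It lay there in the other reproducible peaks too (median 50.0%, quartiles 45.5 and 55.0%).

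Peaks that overlapped the sites in other libraries had widths that changed with the group. Their median was 71 and 69 nt in lowRNase, 75 and 75 nt in noPAGE_RecJ, and 55 and 54 nt in mediumRNase. Without UV it was 65 and 62 nt with PAGE and 74 and 72 nt without. All peaks of those lists followed the same order between the RNase amounts, with medians of 61 and 60 nt in lowRNase and 52 and 51 nt in mediumRNase. With 2 libraries in each group no exact test of these widths can reach 0.05.

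Neighbouring sites of a gene were far apart. The median distance between 1 site and the next in the same gene was 2280 nt (quartiles 741 and 5655 nt, 108566 pairs). It was 1108 nt among the other reproducible peaks and 858 nt among all reproducible peaks, and spacing is tied to the number of peaks kept per gene. Under 30 nt lay 2.96% of the site pairs, under 100 nt 8.35% and under 1000 nt 30.2%. The other reproducible peaks had 8.61, 16.8 and 47.6% of pairs under those distances. Joining sites less than 30 nt apart on a strand gave 112279 clusters from the 119580 sites. The joining ignored genes, so it also merged the 3431 sites that repeat an interval listed under another gene.

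**Figure D1:**
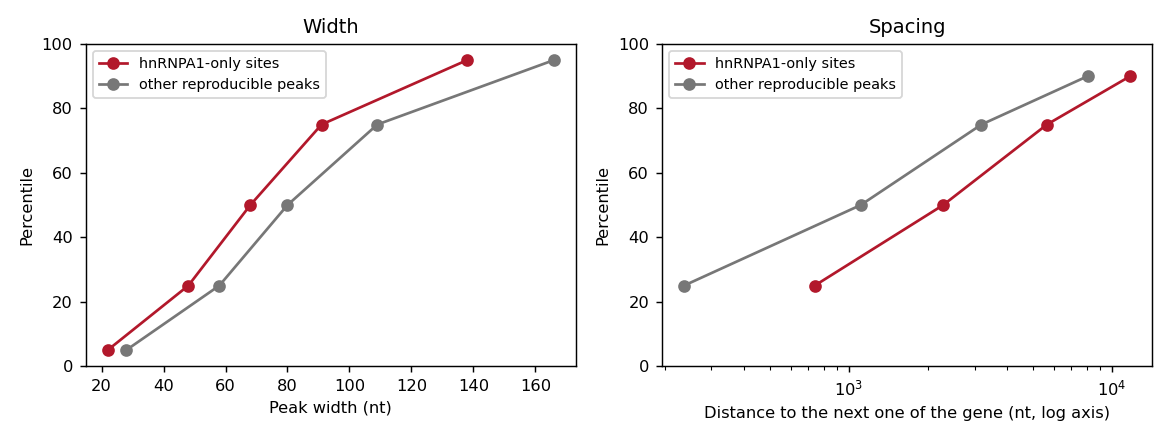
Percentiles (vertical axis) of peak width in nt (left) and of the distance to the next one of the same gene in nt on a log axis (right), for the 119580 sites (red) and the other 145063 reproducible peaks (grey). The sites are narrower, with a median of 68 against 80 nt, and more widely spaced, with a median of 2280 against 1108 nt; both quantities are tied to the rule.

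Sites were spread over most genes with hnRNPA1 peaks. Of 13133 Ensembl genes with a reproducible peak, 11014 held at least 1 site, with a median of 5 (quartiles 2 and 13). A single site was found in 2219 genes and 100 or more in 46 genes. It took 1347 genes to hold 50% of the sites, and the 10 genes with the most held 1.61%. In 2119 genes no reproducible peak was a site. In 1575 genes all were, but 939 of those had only 1 peak and the largest had 15. A further limit is that 3431 sites repeat an interval listed under another gene, leaving 116149 distinct intervals.

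The share of sites was similar in genes with few and with many peaks. It was 45.5% in genes of 1 to 4 reproducible peaks, 44.3% at 5 to 19, 45.9% at 20 to 49, 46.7% at 50 to 99, 44.8% at 100 to 199 and 40.6% at 200 or more. Among the 3864 genes with 20 or more reproducible peaks, the median share was 46.4% (quartiles 34.7 and 57.5%). The extremes were few: 11 genes had 90% or more and 63 under 10%, of which 8 had none.

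The gene with the most sites was ENSG00000183098.6 on the plus strand of chromosome 13, whose listed peaks lie between 93881282 and 95057404 (hg19, per the submitters' processing notes). It held 246 sites among 686 reproducible peaks (35.9%), with a median spacing of 2130 nt. Recovery, the percent of sites overlapped by 1 nt or more in a library, averaged 64.6% ± 5.40 (SD, n = 6 libraries) there over the crosslinked hnRNPA1 libraries outside the rule. Next came ENSG00000158321.11 on the plus strand of chromosome 7 (69065661 to 70256388), with 226 sites of 621 peaks and a recovery of 60.2% ± 8.17 (SD, n = 6 libraries). A gene on the minus strand of chromosome 3 (59754134 to 61236338) held 224 of 466, with a recovery of 52.8% ± 10.1 (SD, n = 6 libraries). The other 7 of the 10 genes held 146 to 212 sites, and the peaks of these 10 genes spanned 518 to 1516 kb. These genes thus lead by number, and not by share: their shares ran from 30.8 to 67.5%.

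The 10 genes with the highest share had peaks over shorter spans, 39.6 to 371 kb. Their mean recovery in the 6 crosslinked libraries was 23.1 to 63%, against 46.3 to 68% in the genes with the most sites. ENSG00000172071.7 on the minus strand of chromosome 2 (88865466 to 88925033) had 25 sites among 26 reproducible peaks, and 32 to 64% of them were recovered in each of the 6 crosslinked libraries. In ENSG00000008869.7 on the same strand of chromosome 2 (37209841 to 37305993), 23 of 24 peaks were sites and recovery averaged 63% ± 19.6 (SD, n = 6 libraries). A gene on the plus strand of chromosome 14 (64321538 to 64692553) had 19 of 20 peaks as sites, with a median of 6 reads. Its sites were recovered at 10.5 to 42.1% in the crosslinked libraries and at 36.8 to 47.4% in the 4 without UV. In that gene no site was overlapped in all 6 crosslinked libraries. With the deposited p below 1e-05 in every list, all 10 of these genes held fewer sites, 2 to 13 each against 19 to 31. The one on chromosome 14 between 64321538 and 64692553 held 2. Site counts of these genes thus depend on peaks above that p, and their shares were not recomputed. The number of all sites fell from 119580 to 85683 under the same limit. At the other end, a gene on the minus strand of chromosome 7 (102178370 to 102305815) had 43 reproducible peaks and no site.

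Chromosomes differed in the share of their reproducible peaks that were sites. Chromosome 4 had 52.6% and chromosome 15 had 49.9%, while chromosome 17 had 39.0%, chromosome 22 had 33.8% and chromosome 19 had 29.8%. On the mitochondrial chromosome only 6 of 146 reproducible peaks (4.11%) were sites.

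Most sites were found again in crosslinked hnRNPA1 libraries that the rule did not use. Of the 119580 sites, 75478 (63.1%) and 73421 (61.4%) were overlapped in the replicates of lowRNase, where 69.3 and 68.2% of all reproducible peaks were. In noPAGE_RecJ the sites reached 60.5 and 64.6%, against 69.5 and 72.4% of all reproducible peaks. In mediumRNase they reached 43.5 and 46.1%, against 54.4 and 56.9%. Sites thus stood below the level of all reproducible peaks in each of the 6 libraries, and below it in mediumRNase by the largest margin. The same sites, displaced by the distance given under processing, were overlapped at 8.96 to 13.9% in these 6 libraries.

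Without UV a smaller part of the sites was listed. With PAGE it was 22.2 and 20.3%, against 30.1 and 28.4% of all reproducible peaks, and without PAGE 21.1 and 24.7%, against 30.2 and 33.7%. The group means were 21.3% ± 1.31 (SD, n = 2) and 22.9% ± 2.52 (SD, n = 2). These lists were also shorter than the crosslinked ones, and the part of list length in the lower recovery was not tested.

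Libraries of other antibodies overlapped few sites. In the 6 noPAGE_RecJ libraries of other proteins recovery was 1.57 to 5.53%, where 10.4 to 17.6% of all reproducible peaks were overlapped. The rule removed every peak that a sister library of these proteins touched, so a low value is partly built in. Displaced sites were overlapped at 3.01 to 12.7% in these 6 libraries, and in each of them the sites themselves lay lower. A low value therefore cannot show that these proteins do not bind there, which was not tested. In hnRNPc_50k_mediumRNase recovery of the sites was 2.05 and 3.31%, against 9.22 and 13.1% of all reproducible peaks. Libraries from fewer cells were as low. In hnRNPc_1k the sites reached 2.20 and 2.96%, against 8.15 and 9.30% of all reproducible peaks, and over all hnRNPc libraries from fewer cells 2.05 to 5.14%, against 8.15 to 15.8%. Among those titled 500, the lowest was hnRNPc_500_noPAGE_RecJ replicate 1, with 2.05 against 8.44%. In RBFOX2_1k they reached 0.546 and 0.910%, against 3.11 and 4.20%, and in RBFOX2_10k 2.38 and 3.03%, against 11.0 and 11.9%.

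Without UV the other antibodies stayed low as well. The sites reached 3.69 and 5.45% in noUV_hnRNPc, against 12.5 and 12.3% of all reproducible peaks, and 1.77 and 3.91% in noUV_noPAGE_hnRNPc, against 8.66 and 11.0%. In noUV_hnRNPI they reached 0.151 and 0.312%, against 0.841 and 1.27%, and in noUV_noPAGE_hnRNPI 0.225 and 0.588%, against 2.19 and 3.54%. In noUV_RBFOX2 they reached 0.315 and 0.219%, against 2.18 and 1.77%, and in noUV_noPAGE_RBFOX2 0.531 and 0.663%, against 3.45 and 4.04%. The hnRNPc antibody was the highest of the 3 and its lists were the longest. Displaced sites were overlapped at 0.200 to 7.04% in these 12 libraries, and in each of them the sites themselves lay lower.

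The mean gap between the hnRNPA1 antibody and the others was close to that of hnRNPA1 peaks at large with crosslinking, and below it without UV. In noPAGE_RecJ the sites gave 62.5% ± 2.87 (SD, n = 2) with hnRNPA1 and 2.84% ± 1.66 (SD, n = 6) with the others, and in mediumRNase 44.8% ± 1.84 (SD, n = 2) and 2.68% ± 0.895 (SD, n = 2). In noPAGE_RecJ the gap was 59.7 percentage points for the sites and 58.5 for all reproducible peaks, and in mediumRNase 42.1 and 44.5. The mean gap over both protocols was 50.9 percentage points for the sites and 51.5 for all reproducible peaks, an average of differences in opposite directions. Without UV it was 20.6 percentage points for the sites and 25.3 for all reproducible peaks. The sites are hnRNPA1 peaks chosen to be absent from sister libraries of the other antibodies, so the direction of these gaps follows from the rule, and no p-value is given.

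**Figure D2:**
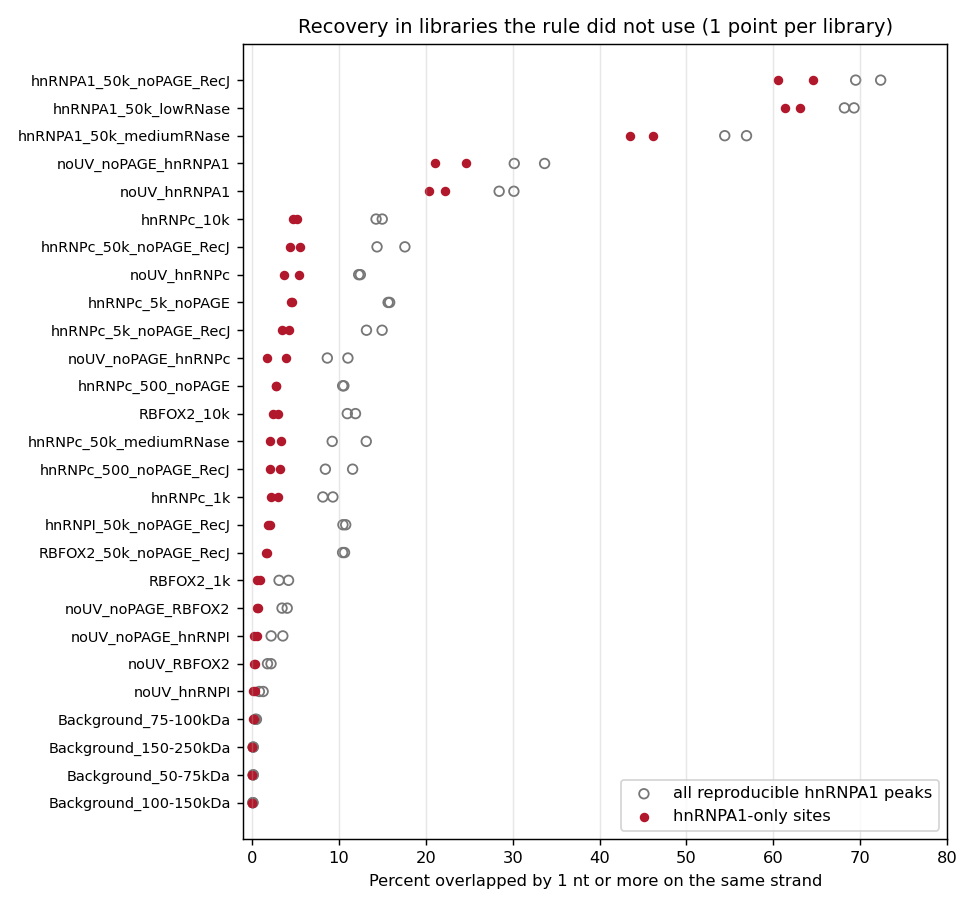
Percent of the 119580 sites (red) and of all 264643 reproducible hnRNPA1 peaks (grey) overlapped by 1 nt or more on the same strand in each library outside the rule, 1 point per library and 1 row per group. The 6 crosslinked hnRNPA1 libraries lie between 43.5 and 64.6% for the sites, the 4 without UV between 20.3 and 24.7%, and all libraries of other antibodies at or below 5.53%.

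Recovery was then set against the other reproducible hnRNPA1 peaks, those that another protein touched. Sites were recovered less in 6 of 6 crosslinked libraries, by 11.3 to 19.9 percentage points. The mean difference was −15.6 percentage points. Sites were also narrower and had fewer reads, as the rule favours, so this difference is a description with no p-value. Within 5 classes of read number, an alternative chosen after seeing the data, the mean was −5.45 percentage points. In the classes, sites and other peaks were recovered at 31.8 and 38.6% (4 to 7 reads), 51.6 and 57.4% (8 to 15), 73.5 and 78.2% (16 to 31), 87.4 and 90.1% (32 to 63), and 92.1 and 94.6% (64 or more).

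Without UV the gap widened with read number. The mean recovery of sites and other peaks was 12.7 and 14.6% at 4 to 7 reads, and 29.2 and 37.9% at 16 to 31 reads. At 64 reads or more it was 51.1% for the sites and 74.7% for the others. These values were not tested.

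The number of crosslinked hnRNPA1 libraries that overlapped a site was spread widely. None of the 6 overlapped 9959 sites (8.33%), and all 6 overlapped 21665 (18.1%), against 5.86 and 29.4% of all reproducible peaks. Among the other reproducible peaks the shares were 3.82 and 38.6%. At least 4 of the 6 overlapped 50.3% of the sites, 61.5% of all reproducible peaks and 70.7% of the other peaks. From sites in none of the 6 to sites in all 6, the median read number rose from 7 to 22 and the median width from 51 to 89 nt.

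Persistence with and without UV went together. At least 1 of the 4 hnRNPA1 libraries without UV overlapped 41709 sites (34.9%), against 45.2% of all reproducible peaks. All 4 overlapped 11.6% of the sites, 18.2% of all reproducible peaks and 23.6% of the other peaks. Of the 21665 sites in all 6 crosslinked libraries, 6140 (28.3%) were also in all 4 without UV and 8629 (39.8%) in none of them. Of the 77673 reproducible peaks in all 6, 28920 (37.2%) were in all 4 and 22802 (29.4%) in none. Sites in all 6 and all 4 were 6140 of 119580, and such peaks were 10.9% of all reproducible peaks. Of the 9959 sites in none of the 6, 133 (1.34%) were in all 4 without UV, against 1.93% of all reproducible peaks in none of the 6.

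Some sites were overlapped by other antibodies outside the rule, at lower shares than hnRNPA1 peaks at large, which the rule partly builds in. At least 1 of the 44 libraries of other antibodies or gel regions outside the rule overlapped 51564 sites (43.1%), against 67.4% of all reproducible peaks. At least 1 of the 6 noPAGE_RecJ libraries of other proteins overlapped 17459 sites (14.6%), against 40.2%. A stricter set of 9381 sites (7.84%) was overlapped in all 6 crosslinked hnRNPA1 libraries and in none of those 44, against 5.19% of all reproducible peaks. The rule partly builds in that difference too, and the 5.19% also counts these 9381 sites. These sites lay in 4228 genes, with a median width of 85 nt, a median of 19 reads, and a median of 167 nt to the nearest peak of an excluding library.

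**Figure D3:**
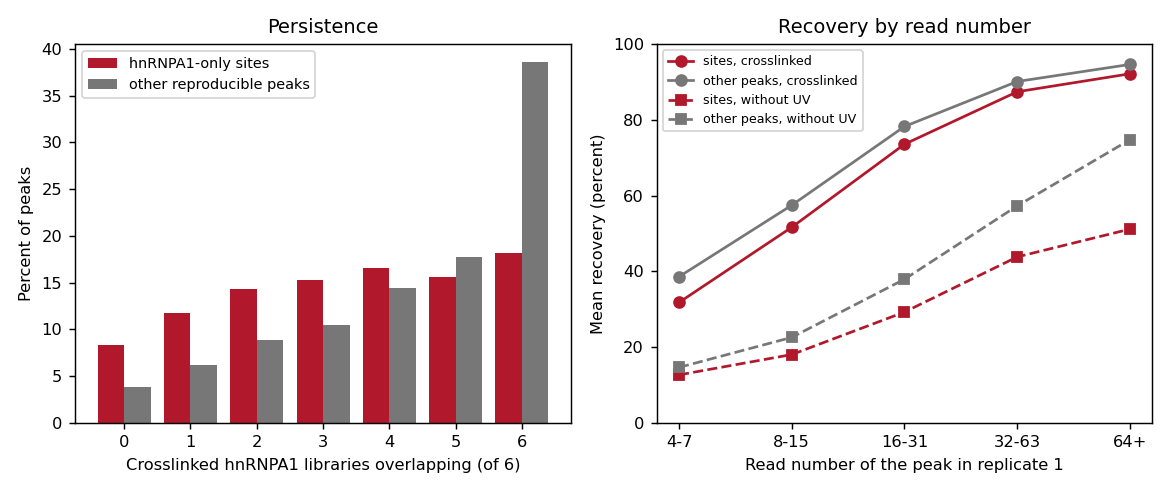
Left, percent of sites (red) and of other reproducible peaks (grey) by the number of 6 crosslinked hnRNPA1 libraries outside the rule that overlap them. Right, mean recovery in percent by read number in replicate 1, in those 6 libraries (circles, solid) and in 4 hnRNPA1 libraries without UV (squares, dashed): at 64 reads or more, sites and other peaks reach 92.1 and 94.6% with crosslinking and 51.1 and 74.7% without.

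Individual sites show how the signal behaved from library to library. The 12 described here were overlapped in all 6 crosslinked libraries and had the highest lower read number in lowRNase, 1 per gene, with none on chromosome 8 or the mitochondrial chromosome. Being so chosen, their levels are a description. Read numbers are not scaled between libraries, and the read number of a library is that of the listed peak over the site.

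The site with the highest values by this order is chrX:73068650-73068689 on the minus strand, 40 nt wide and 321 nt from the nearest excluding peak. Its read numbers were 1121 and 1172 in noPAGE, 1588 and 1748 in lowRNase, 1001 and 1009 in mediumRNase, and 1080 and 1210 in noPAGE_RecJ. Without UV they were 206 and 140 with PAGE and 179 and 200 without. Crosslinked and uncrosslinked libraries did not overlap, and the site was listed in all 12 hnRNPA1 libraries.

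On the plus strand, chr11:65266876-65266925 is 50 nt wide and lies 33 nt from an excluding peak. It had 1841 and 2631 reads in noPAGE, 1488 and 1645 in lowRNase, 630 and 629 in mediumRNase, and 2274 and 2790 in noPAGE_RecJ. Without UV it had 266 and 243 reads with PAGE and was not listed in either library without PAGE. Here mediumRNase was the lowest crosslinked group.

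A narrower one, chr1:245015514-245015537 on the minus strand, is 24 nt wide and lies 8 nt from an excluding peak. It had 625 and 706 reads in noPAGE, 479 and 480 in lowRNase, 123 and 183 in mediumRNase, and 622 and 656 in noPAGE_RecJ. Of the 4 libraries without UV, only noUV_noPAGE_hnRNPA1 replicate 2 listed it, with 657 reads, which is within the range of the crosslinked libraries. No library of another antibody outside the rule overlapped it.

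Among the remaining sites, chr22:38887470-38887546 on the minus strand (77 nt) had 325 and 606 reads in noPAGE, 343 and 443 in lowRNase, 61 and 105 in mediumRNase, and 333 and 533 in noPAGE_RecJ. It was listed in no library without UV. On the minus strand of chromosome 5, chr5:179048530-179048564 (35 nt) had 321 and 624 reads in noPAGE, 288 and 287 in lowRNase, 145 and 144 in mediumRNase, and 430 and 538 in noPAGE_RecJ. Without UV it was listed in all 4 libraries, with 68 and 35 reads with PAGE and 43 and 35 without. These sites share low values in mediumRNase and differ in whether they appear without UV.

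On the plus strand, chr20:42090685-42090844 is the widest of the 12 at 160 nt. It had 325 and 271 reads in noPAGE, 204 and 215 in lowRNase, 133 and 149 in mediumRNase, and 245 and 271 in noPAGE_RecJ, and 68, 63, 61 and 66 in the 4 libraries without UV. On chromosome 14, chr14:21736603-21736725 on the minus strand lies in a gene with 33 sites. It had 134 and 151 reads in noPAGE, 218 and 228 in lowRNase, 89 and 86 in mediumRNase, and 188 and 201 in noPAGE_RecJ. Without UV only 1 of 4 libraries listed it, with 25 reads.

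On the minus strand, chrX:71494048-71494157 (110 nt) had 257 and 270 reads in noPAGE, 300 and 280 in lowRNase, 95 and 79 in mediumRNase, and 200 and 271 in noPAGE_RecJ, and was listed in 1 of 4 libraries without UV, with 20 reads. The last 4 of the 12 are 2 places listed under 2 genes each, both on the plus strand. They start at 28836228 and 28836231 on chromosome 1 and at 54678157 and 54678158 on chromosome 12. The place on chromosome 1 had 327 and 325 reads in lowRNase and 63 and 62 in mediumRNase, and that on chromosome 12 had 247 and 226, then 87 and 91. Neither was listed without UV. In all 12, both mediumRNase values lay below both lowRNase values, an order that unscaled numbers cannot separate from the depth of the libraries.

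**Figure D4:**
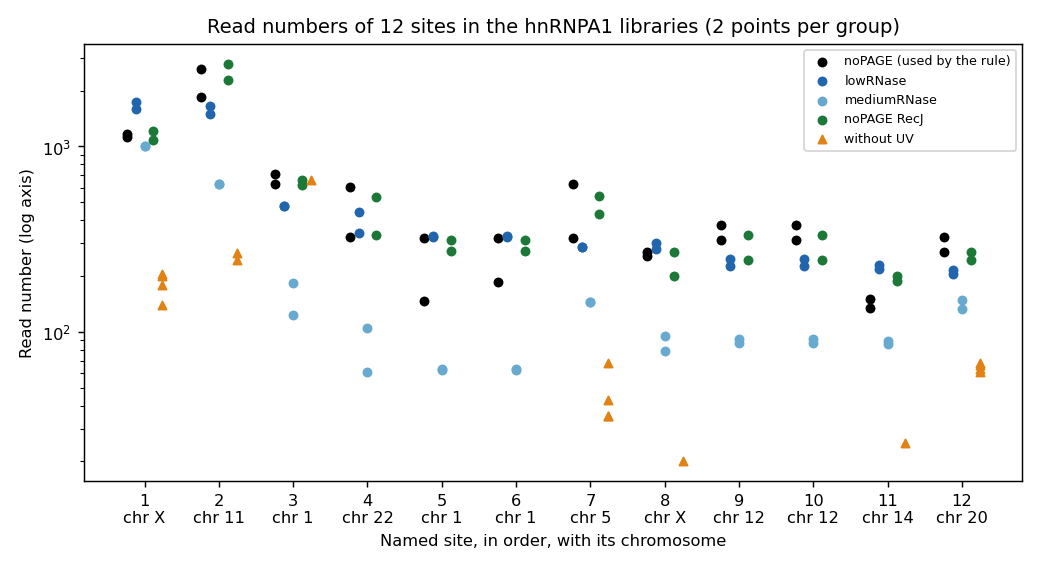
Read number of the listed peak (log axis) at the 12 named sites in the hnRNPA1 libraries, 2 points per crosslinked group and triangles for the libraries without UV that listed the site. Sites 5 and 6, and 9 and 10, are the same places listed under 2 genes; mediumRNase is the lowest crosslinked group at each site, and 5 sites have no triangle.

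Distance to other proteins separated the sites in opposite ways with and without UV. Across classes of distance to the nearest peak of an excluding library, mean recovery in the 6 crosslinked libraries was 60.5% under 10 nt, 59.8% at 30 to 99 nt, 57.6% at 100 to 299 nt, 53.2% at 300 to 999 nt and 44.6% at 1000 nt or more. In the 4 libraries without UV it was 21.1, 20.0, 20.9, 24.2 and 30.1% over the same classes. The 8735 sites at 1000 nt or more lay in 3754 genes, with a median of 9 reads and a width of 74 nt, against 14 reads and 67 nt for the 44216 sites under 100 nt. Distances were measured to lists that the rule used.

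By library, distant sites were recovered at 46.3 and 44.2% in lowRNase against 67.3 and 65.4% for near ones. In mediumRNase the values were 32.7 and 34.3% against 47.7 and 50.4%, and in noPAGE_RecJ 53.2 and 56.6% against 62.9 and 67%. Distant sites were below near ones in each of these. Without UV they were above them, at 26.4 and 25.3% against 21.0 and 19.1% with PAGE, and at 31 and 37.6% against 18.7 and 21.9% without. In the 12 libraries without UV of the other antibodies distant sites were below near ones, with differences of −5.99 to −0.0616 percentage points. Distance was measured to peaks of these same antibodies, so that direction is partly built in and cannot be set beside the hnRNPA1 values.

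**Figure D5:**
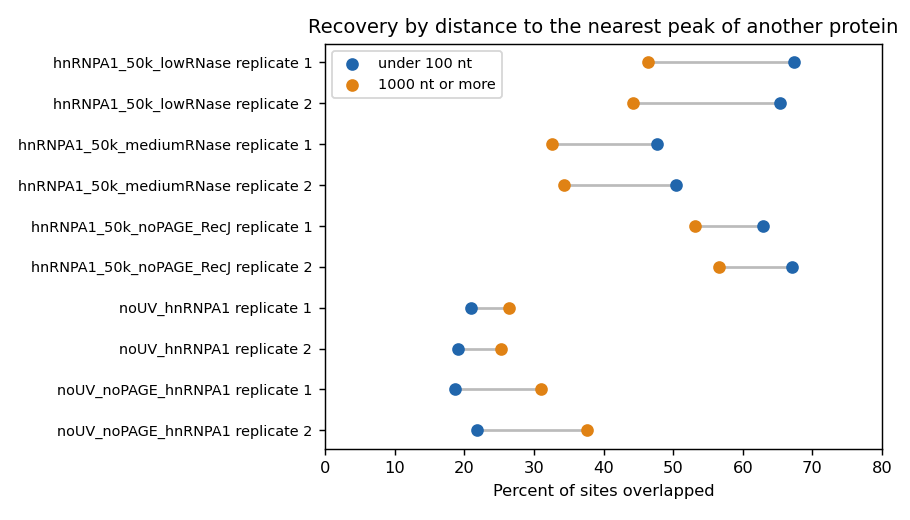
Percent of sites overlapped in each hnRNPA1 library outside the rule, for 44216 sites under 100 nt (blue) and 8735 sites at 1000 nt or more (orange) from the nearest peak of an excluding library. Orange lies left of blue in the 6 crosslinked libraries and right of it in the 4 without UV.

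Read number moved with this pattern. Within read classes the distant sites stayed higher without UV, for example 30.2 against 14.7% at 8 to 15 reads and 48.0 against 25.2% at 16 to 31 reads. With crosslinking the classes of 16 reads or more no longer differed in 1 direction, with 73.5 against 73.2% at 16 to 31 reads. Averaged over read classes, the distant sites were 11.2 to 21.2 percentage points above the near ones without UV. With crosslinking the differences ran from −10.5 to 2.47, and both noPAGE_RecJ libraries turned positive.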

How the data were processed

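The authors deposited 1 peak list per library with 8 columns and no header. Columns give position, strand, a name with an Ensembl gene identifier and a last number read as reads, and the deposited p-value of each peak (at most 0.00755, adjustment not stated). CLIPper is named as the caller per the file names. The submitters' processing notes name hg19, STAR 2.7.3a, UMI-tools 1.0.1 and bcl2fastq, with no role or order. Their settings were not stated in these sources.

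Overlap was at least 1 nt on the same strand, computed in Python 3.11.15 (numpy 2.4.6, pandas 2.3.3, matplotlib 3.10.9) and tested on simulated data. Exact two-sided permutation tests relabelled libraries within protocol, or flipped signs over 6 libraries, and 3 p-values were adjusted together. The rule bears on the direction of all 3 differences, so the text gives their values and no p. Alternatives were p below 1e-05, 50% overlap, the other replicate's coordinates, fewer excluding libraries, joined peaks (30 nt), sites displaced by 1000 nt, read number, no mitochondrial peaks and libraries left out.

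Named genes are the 10 with the most sites and the 10 with the highest share (20 or more reproducible peaks). Named sites are the 12 described with them. The gene at the lowest share was added after its values were seen. Members and lists were chosen with earlier results of these data known. Gene lists by name, motifs, sequences and exon or intron positions were not analysed here, since no identifier was matched to a name.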

Additional observations from a re-analysis of the deposited data

Results flagged for a closer look

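The contrast of distant and near sites drew attention because all 4 hnRNPA1 libraries without UV and all 6 crosslinked ones lay on opposite sides of 0. Sites at 1000 nt or more from another protein's peak minus sites under 100 nt gave 9.95 percentage points ± 4.95 (SD, n = 4, range 5.44 to 15.8) without UV. With crosslinking the value was −15.6 percentage points ± 4.96 (SD, n = 6, range −21.2 to −9.67). The 2 means differ by 25.5 percentage points, and within read classes by 19.8. Within read classes the signs no longer separated the libraries, as the crosslinked noPAGE_RecJ libraries gave 2.47 and 1.12. The limits of distance were chosen after the values were seen, so the difference was not tested. Within the protocol with PAGE at 0.005 U, the values were 5.44 and 6.27 without UV and −21.0 and −21.2 with it. Without PAGE they were 12.3 and 15.8 without UV, and −9.67 and −10.4 in the crosslinked noPAGE_RecJ libraries. All 4 hnRNPA1 libraries without UV have accessions in a run apart from the 6 crosslinked ones, so for hnRNPA1 the run and the omission of UV cannot be told apart.

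Gel regions outside the main measurement also overlapped some sites. The mean of 2 libraries was 27.5 sites in the 150 to 250 kDa region (23 and 32), 9.5 at 100 to 150 kDa (8 and 11), 190.5 at 75 to 100 kDa (213 and 168) and 15 at 50 to 75 kDa (10 and 20). These are 0.00669 to 0.178% of the sites, against 0.0854 to 0.503% of all reproducible peaks.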

How the results depend on the processing

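Both differences between antibodies kept direction under every alternative run (45.6 to 55.7 percentage points over 32, and 18.9 to 24.3 over 36). The direction follows from the rule, which every run applied again, so keeping it tests nothing. These runs include a replicate block, which relabels only within replicate number and so cannot change the values of 50.9 and 20.6. Replicate numbers are shared only as numbers, and replicate 1 recovered more sites in 8 of 27 groups. Sites minus other peaks was −7.54 at or above the median read number and −10.3 after subtracting the recovery of displaced sites. Leaving out a library gave −16.5 to −14.2. The number of sites ran from 85683 to 155978 and of genes from 9108 to 11724. At p below 1e-05 the median width was 85 nt and spacing 1456 nt. Recovery was then 64.3% in lowRNase, 42.4% in mediumRNase, 71.6% in noPAGE_RecJ, and 23.2 and 27.2% without UV with and without PAGE. At 50% overlap the values were 74 nt, 1957 nt, 55.9, 35.8, 58.9 and, without UV with PAGE, 19.5%. With replicate 2 coordinates they were 69 and 2257 nt. Excluding by libraries without PAGE alone gave 71 and 1687 nt, then 66.0, 50.2, 65.9, 24.5 and 26.8%. Joined peaks gave a spacing of 2551 nt. Leaving out 1 library gave widths of 68 to 69 nt, spacings of 2087.5 to 2280 nt, and recoveries of 61.4 to 63.5, 43.5 to 46.2, 60.5 to 64.6, 20.3 to 22.2 and 21.1 to 24.7%. The distance contrast ran from 14.6 (limits of 300 and 30 nt) to 27.0. Counts in named genes stayed within 1.5 times in 322 of 340 values. Most of these values left out 1 excluding library, which can only add sites, or removed mitochondrial peaks, which cannot change these genes. At p below 1e-05 all 10 genes with the highest share moved beyond that limit. Of the genes with the most sites some did, such as ENSG00000198589.6 (158 to 63), and others did not, such as ENSG00000183098.6 (246 to 276). Named sites stayed within 1.5 times in 192 of 192 values. For named sites the value is the number of the 6 crosslinked hnRNPA1 libraries that overlapped the site. The choice of excluding libraries and the removal of mitochondrial peaks cannot change that number, so most of the 192 values test nothing. At 50% overlap the site on chromosome 5 from 179048530 fell from 6 to 4 libraries, which the limit of 1.5 times counts as unchanged. The cause of these changes was not tested. Depth is unknown.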
